A study of Mus musculus with 31 samples.

Results

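Pluripotency factors hold mouse embryonic stem cells (ESCs) in a state from which any tissue of the embryo can form. The set described here has 8 named genes: Nanog, Esrrb, Tfcp2l1, Klf4, Dppa2, Dppa4, Tdgf1 and Zfp42. They were taken by symbol from the 5 deposited allele tables, which together hold 17484 features, and 7 of the 8 had a row in at least 1 table. Levels and alleles of Zfp42, a zinc finger gene used as an ESC marker, were not analysed here. Nanog, Esrrb, Tfcp2l1 and Klf4 had a row in all 5 tables, Dppa4 in 4, Dppa2 in 3 and Tdgf1 in 2. Tfcp2l1 lies on chromosome 1, Klf4 on 4, Nanog on 6, Tdgf1 on 9, Esrrb on 12, and Dppa2 and Dppa4 both on 16.

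RNA was measured in F1 hybrids of the mouse strains C57BL/6 (B6) and JF1, made in both directions: BJ1 had a B6 mother and a JF1 father, and JB6 the reverse. The 25 libraries comprised 4 of undifferentiated ESCs, 4 of cells differentiated towards cortex for 12 days and 4 for 21 days (each with 2 BJ1 and 2 JB6 libraries), 6 of E13.5 tissue labelled DT (3 BJ1 and 3 JB6) and 7 of P0 cortex labelled Ctx (4 BJ1 and 3 JB6). Both tissues are called cortex in the study's description. The ESC lines came from blastocysts whose B6 parent carried a GFP transgene under the Oct4 promoter, were kept on gelatin in medium with a GSK3β inhibitor, LIF and BMP4, and were differentiated on matrigel in a defined medium with B27, which held the Hedgehog inhibitor cyclopamine in an early window. All 12 culture libraries were labelled male, and 11 of the 13 cortex libraries female, so that culture and sex largely cannot be told apart in comparisons of culture with cortex. In culture each cross is a line, so that cross and line cannot be told apart there. No label says whether replicates came from separate cultures, so p-values measure the spread between these samples, which may be technical. Libraries of the 129P2 line E14 were not analysed here.

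In mouse ESCs, LIF activates Stat3 and inhibition of GSK3 stabilises β-catenin, and these inputs reach the pluripotency network through genes of this set. Klf4 and Tfcp2l1 are transcription factors downstream of LIF and Stat3, Esrrb is an orphan nuclear receptor downstream of GSK3 inhibition, and Nanog is a homeodomain factor of the network. Dppa2 and Dppa4 are a pair of chromatin-bound proteins that act as a heterodimer in early embryos and ESCs, and Tdgf1 (Cripto) is a cell-surface co-receptor for Nodal. Neural differentiation is known to shut this network down, while Klf4, Esrrb and Tfcp2l1 are also used in some differentiated epithelia.

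The start regions of 3 of these genes are shown, picked because they share a motif. RefSeq windows on GRCm38.p6, from 250 bases before to 50 after the gene start, existed for 6 of the 8 genes, with none for Dppa2 and Dppa4. The 3 windows, read 5′ to 3′ on the gene's strand, are chr6:122707239-122707538 (plus strand) for Nanog, chr1:118627695-118627994 (plus strand) for Tfcp2l1 and chr9:110946109-110946408 (minus strand) for Tdgf1. Capitals mark matches on either strand to the KLF motif GGGCGTG or the SOX motif CATTGT.
Nanog: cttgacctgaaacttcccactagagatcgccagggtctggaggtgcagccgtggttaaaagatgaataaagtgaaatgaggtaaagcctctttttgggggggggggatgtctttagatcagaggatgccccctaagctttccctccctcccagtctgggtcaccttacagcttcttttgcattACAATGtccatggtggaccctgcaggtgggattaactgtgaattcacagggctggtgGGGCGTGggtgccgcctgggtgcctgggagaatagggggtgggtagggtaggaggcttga
Tfcp2l1: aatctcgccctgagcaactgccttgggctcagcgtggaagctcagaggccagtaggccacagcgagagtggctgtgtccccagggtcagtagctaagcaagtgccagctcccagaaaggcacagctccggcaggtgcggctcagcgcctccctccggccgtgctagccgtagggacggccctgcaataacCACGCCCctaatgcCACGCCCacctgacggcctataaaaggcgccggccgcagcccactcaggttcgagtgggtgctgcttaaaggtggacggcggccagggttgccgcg
Tdgf1: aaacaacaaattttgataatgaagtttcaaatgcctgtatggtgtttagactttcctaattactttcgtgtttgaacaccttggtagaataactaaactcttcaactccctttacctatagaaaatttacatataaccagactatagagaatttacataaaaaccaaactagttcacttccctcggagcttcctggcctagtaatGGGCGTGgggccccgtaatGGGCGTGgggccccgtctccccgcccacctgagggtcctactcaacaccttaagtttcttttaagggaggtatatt
A KLF match stood in 3 of the 6 genes with a window: in Nanog from base -10 of the start shown, in Tfcp2l1 at -60 and -46, and in Tdgf1 at -45 and -26. Over all 32851 RefSeq windows of the same length, 8.44% held this motif. That share counts single windows, whereas Nanog and Esrrb each have 2. The SOX motif was in Nanog, at -67, and in 1 of the 2 windows of Esrrb, against 12.6% of all windows. Nanog has a second RefSeq start, from which the same matches lie at -86 (KLF) and -143 (SOX). The octamer ATGCAAAT, held by 1.74% of all windows, matched in 1 of the 6 genes, Zfp42, for which no level is given. The other 3 motifs searched on both strands matched none of the 6 genes: ESRRB (TCAAGGTCA, 0.423% of all windows), STAT (TTCCNGGAA, 1.15%) and TCF (CTTTGAT, 3.73%). A match is a string of letters and not a shown binding site.

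Levels are given as CPM: sense-strand bases read at positions that differ between B6 and JF1 (read bases), both alleles summed, per 1000000 read bases of the library. A gene's level therefore depends on how many such positions it has, and levels are compared between libraries and not between genes. Libraries held 5192382 to 8618253 read bases, and 3 read bases, taken as the floor, correspond to 0.545 CPM in the ESC library BJ1 replicate 1. Stage comparisons used edgeR's quasi-likelihood test in 1 fit of all 25 libraries with stage and cross as terms, on features that averaged 20 read bases or more in the libraries of the stages compared, with Benjamini-Hochberg adjustment over all features tested and a call at an adjusted p of 0.05. Errors given with log2 changes are standard errors (SE), worked back from edgeR's F statistic as the absolute log2 change over the square root of F. For genes with few read bases they can lie below the counting error. One ESC library, JB6 replicate 2, stood apart from the other 3 in markers of other cell types, as described with the spread among ESC libraries.

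The 4 transcription factors were abundant in every ESC library. Nanog averaged 163 ± 37.1 CPM in ESCs (SD, n = 4). It averaged 0.477 ± 0.601 in day 12 cultures and 0.189 ± 0.206 in day 21 cultures (SD, n = 4 each), and 0.1 ± 0.179 in E13.5 cortex (SD, n = 6) and 0.0257 ± 0.0679 in P0 cortex (SD, n = 7). Its ESC libraries ran from 121 to 200 CPM, no later library exceeded 1.33, and the 21 libraries outside ESCs held 11 read bases at day 12, 5 in day 21 cultures, and in cortex 4 at E13.5 and 1 at P0. Esrrb averaged 2105 ± 584 CPM in ESCs, 10.6 ± 4.33 and 11.2 ± 3.02 in day 12 and day 21 cultures, and 0.487 ± 0.250 and 0.829 ± 0.471 in E13.5 and P0 cortex. Every one of the 25 libraries held at least 1 Esrrb read base, and the culture libraries at days 12 and 21, at 5.57 to 16.1 CPM, all lay above the cortex libraries, at 0.177 to 1.58.

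Relative to their ESC levels, Tfcp2l1 kept the most signal among the members at P0, and Klf4 at the other stages. Pooled over libraries, Tfcp2l1 was 58.5-, 54.9-, 381- and 139-fold below ESCs at day 12, day 21, E13.5 and P0. Klf4 was 38.2-, 7.62-, 88.7- and 191-fold below. At P0 the counting error alone allows 121- to 323-fold for Klf4, so that the order there is uncertain. Tfcp2l1 averaged 1113 ± 299 CPM in ESCs, 19.8 ± 7.08 and 20.9 ± 9.08 in day 12 and day 21 cultures, and 2.90 ± 1.67 and 7.85 ± 2.79 in E13.5 and P0 cortex (SD, n as for Nanog). Klf4 averaged 76.3 ± 43.3 CPM in ESCs, 2.07 ± 2.31 and 10.2 ± 4.02 in day 12 and day 21 cultures, and 0.951 ± 1.37 and 0.366 ± 0.461 in E13.5 and P0 cortex. It was at its lowest culture level at day 12, where 1 library had no read base, and each day 21 library exceeded each day 12 library.

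Dppa2, Dppa4 and Tdgf1 were near or at 0 outside ESCs. Dppa2 averaged 168 ± 40.3 CPM in ESCs (SD, n = 4), held 3 read bases over the 4 day 12 libraries and 2 over the day 21 libraries, and had no row at E13.5 or P0. Its partner Dppa4 averaged 127 ± 8.25 CPM in ESCs, 1.12 ± 0.341 at day 12 and 0.460 ± 0.157 at day 21, held 1 read base at E13.5 and had no row at P0. Tdgf1 had 7.70 to 27.7 CPM in ESCs (n = 4), from a single strain difference, had no row at day 12, day 21 or E13.5, and held 1 read base at P0. A missing row was taken as 0 read bases, which allows up to 0.116 CPM over the day 12 libraries together, 0.112 over those of day 21, 0.0790 over E13.5 and 0.0672 over P0. These bounds cover only the counting error of independent read bases.

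**Figure D1:**
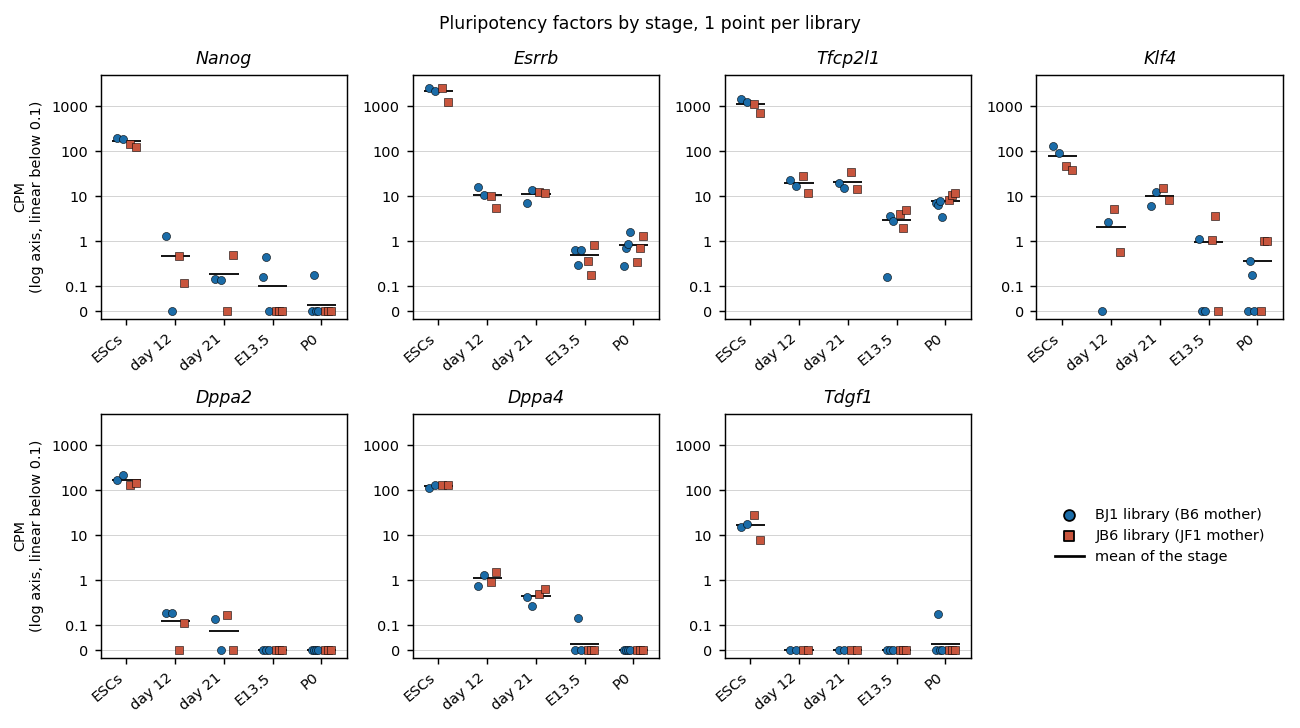
Level in CPM of 7 pluripotency factors (y axis, logarithmic above 0.1 and linear below it) at 5 stages, with 1 point per library (circles BJ1, squares JB6) and a bar at the stage mean. Nanog's 4 ESC libraries sit between 121 and 200 and its 21 other libraries at or below 1.33, while Tfcp2l1 still averaged 7.85 at P0.

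Which of these genes fell during differentiation was asked by comparing day 12 with ESCs. Each of the 7 tested members was lower at day 12, against 37.0% of all 10565 features tested that were called lower and 77.5% called in either direction. Of the 7, 5 reached the floor of 20 read bases only through their ESC libraries, so that a fall was the change the test could show and the count is a description; Esrrb and Tfcp2l1 also reached it at day 12. Without the ESC library JB6 replicate 2 all 7 were still called lower. The members' median log2 change was -7.87, or -7.22 with Tdgf1 set at its bound, against 0.07 over all features tested. In these bulk samples, fewer cells of a type and less RNA per cell cannot be told apart.

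Nanog had 1.33, 0, 0.464 and 0.116 CPM in the day 12 libraries, against 200, 188, 145 and 121 in ESC libraries (BJ1 replicates first). The groups did not overlap, and the log2 change was -8.66 ± 0.39 (SE, adjusted p = 8.66e-16, edgeR). Without the day 12 library BJ1 replicate 1, which held 7 of the 11 read bases, it was -9.64. Esrrb and Tfcp2l1 were the best covered of the set. Esrrb had 16.1, 10.7, 10.1 and 5.57 CPM at day 12 and 2464, 2198, 2504 and 1253 in ESCs, a log2 change of -7.87 ± 0.33 (SE, adjusted p = 4.58e-16, edgeR). Tfcp2l1 had 22.4, 16.7, 28.3 and 12.0 CPM at day 12 and 1419, 1234, 1083 and 714 in ESCs, a log2 change of -6.05 ± 0.41 (SE, adjusted p = 3.06e-12, edgeR). In both genes every day 12 library was far below every ESC library.

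Klf4 had 0, 2.59, 5.10 and 0.580 CPM at day 12, against 132, 89.9, 46.4 and 37.6 in ESCs. Its log2 change of -5.45 ± 0.74 was the smallest of the 7 and had the second largest error (SE, adjusted p = 5.75e-07, edgeR), and it was -6.39 without the day 12 library JB6 replicate 1. Dppa2 had 0.190, 0.185, 0 and 0.116 CPM at day 12, against 169, 225, 132 and 148 in ESCs. It fell by 10.41 on the log2 scale (SE 0.32, adjusted p = 3.17e-13, edgeR). This rests on 3 read bases at day 12. The counting error of independent read bases alone allows a pooled level between 501- and 7100-fold lower than in ESCs. Dppa4 had 0.759, 1.30, 0.928 and 1.51 CPM at day 12, against 115, 132, 132 and 130 in ESCs, and fell by 6.97 on the log2 scale (SE 0.23, adjusted p = 1.57e-15, edgeR). Tdgf1 had no read base at day 12, against 15.1, 17.6, 27.7 and 7.70 CPM in ESCs. It was at least 149-fold lower at day 12, with the floor of 3 read bases over the group, and its fall passed with edgeR (adjusted p = 3.86e-08) but not with DESeq2 (adjusted p = 0.0508).

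Of 30 other genes of the naive ESC state, 24 were tested, 23 were called lower and 0 higher, where 37.0% of all features were called lower, and the median log2 change was -6.59. Of the 24, 13 reached the floor only through ESCs, so that a fall was the change the test could show for them; of the 11 that reached it at both stages, 10 fell. Tdh, a threonine-catabolic enzyme of mouse ESCs, averaged 1.97 CPM at day 12 and 834 in ESCs (log2 change -9.08), Prdm14, a PR-domain factor, 0.171 and 59.3 (-8.58), Gdf3, a TGF-β family ligand, 0.331 and 90.7 (-8.30), and Zscan10, a zinc finger factor, 0.770 and 154 (-7.87). Fgfbp1 was the gene that did not pass, at 39.0 CPM at day 12 and 25.2 in ESCs. Sox2, which neural progenitors also express, fell by 1.95 on the log2 scale, with 60.2 CPM at day 12 and 203 in ESCs. Pou5f1 (Oct4) was not tested, since it is read at a single strain difference and held 0.153 to 0.963 CPM in ESCs.

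Genes of the later, formative or primed pluripotent state were mixed. Of 16 listed, 13 were tested, 8 fell and 4 rose at day 12, with a median log2 change of -2.60. Over all features, 37.0% were called lower and 77.5% in either direction. Of the 13, 3 reached the floor only through day 12 and 3 only through ESCs. Of the 7 that reached it at both stages, 5 fell and 1 rose. Lefty1 and Lefty2, inhibitors of Nodal, fell by 7.63 and 7.05, and Nodal itself by 5.41 on the log2 scale. Lefty1 and Lefty2 reached the floor only through ESCs, so that a fall was the change the test could show. Foxa2, a factor of endoderm and floor plate that is also on the primitive endoderm list, rose by 5.76 on the log2 scale, with 6.64 CPM at day 12 and 0.0911 in ESCs. Foxa2 reached the floor only through day 12, so that a rise was the change the test could show. Of 20 genes of LIF, BMP and Wnt signalling, 15 were tested, 7 rose and 4 fell, with a median log2 change of 0.40. Of the 13 that reached the floor at both stages, 7 rose and 3 fell. The largest changes there were Cdx1, a caudal factor and Wnt target, which fell by 8.07, the LIF receptor gene Lifr, which fell by 1.23, Socs3, a feedback inhibitor of Stat3 signalling, which fell by 0.93, and Gsk3b, which rose by 0.89. Cdx1 reached the floor only through ESCs. Of 20 genes of 2-cell-like and germline cells 3 were tested, and Dppa3 and Ddx4 fell by 6.64 and 6.16. Dppa3 is also 1 of the 23 naive genes called lower, and both reached the floor only through ESCs. All these calls are edgeR's, at adjusted p-values between 1.28e-16 for Zscan10 and 6.76e-05 for Gsk3b.

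**Figure D2:**
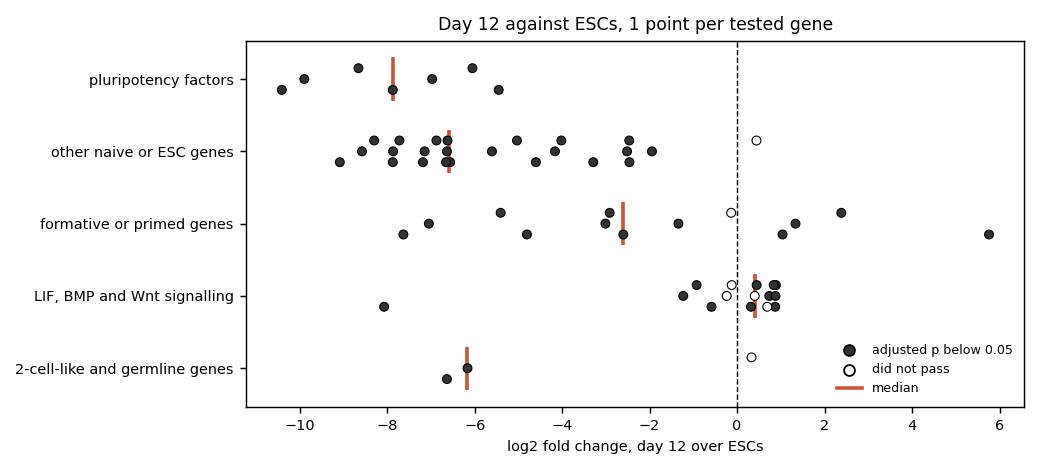
Log2 fold change of day 12 over ESCs (x axis) for each tested gene of 5 lists (rows), filled where the adjusted p was below 0.05 and open where it was not, with a red bar at the list's median. All 7 pluripotency factors lie between -10.41 and -5.45; Tdgf1's fitted value is not a bound, since its day 12 libraries are all at 0.

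Markers of other cell types moved with this fall. From the lists of other cell types, summed levels of 8 epithelial genes (6 with a row) ran from 2851 to 4415 CPM at day 12 and from 418 to 1525 in ESCs, and those of 8 meningeal or fibroblast genes from 1976 to 3684 at day 12 and 2.23 to 149 in ESCs. Neural progenitor and neuron genes summed to 228 to 738 CPM in day 12 and 475 to 726 in day 21 cultures, and to 2196 to 2984 in E13.5 and 3529 to 4266 in P0 cortex. The culture libraries thus held less of the listed neural RNA than cortex and, at day 21, 3883 to 4878 CPM of epithelial RNA, against 0.704 to 4.40 at P0. Their part in the members' changes was not tested.

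Klf4 rose between day 12 and day 21, the 1 call among the 3 members tested there. Its 5.91, 12.1, 14.9 and 8.04 CPM at day 21 stood above 0, 2.59, 5.10 and 0.580 at day 12, and the log2 change was 2.35 ± 0.74 (SE, adjusted p = 0.011, edgeR; DESeq2 adjusted p = 0.0956). Of all 11278 features tested, 51.2% were called in either direction. Klf4, with 52 read bases in the day 12 libraries and 270 in the day 21 libraries, reached the floor only through day 21, so that a rise was the change the test could show. Leaving out the day 12 library JB6 replicate 1 gave 3.35. Esrrb (0.15 ± 0.29, adjusted p = 0.686) and Tfcp2l1 (0.10 ± 0.36, adjusted p = 0.845) did not pass with edgeR. The meningeal or fibroblast sum, at 7305 to 11456 CPM at day 21 and 1976 to 3684 at day 12, moved the same way as Klf4. So did the trophoblast sum, at 303 to 418 CPM at day 21 and 117 to 260 at day 12, and the microglia and blood sum, at 41.9 to 111 CPM at day 21 and 15.0 to 28.8 at day 12. By gene, 4 of 7 tested meningeal or fibroblast genes rose and 0 fell (edgeR). The same counts were 1 and 0 of 4 trophoblast genes, and 2 and 1 of 3 microglia and blood genes. The part of these markers in that change was not tested.

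In cortex, only Tfcp2l1 held enough read bases to be tested between P0 and E13.5. It had 3.34 to 11.8 CPM at P0, with a median of 7.74, and 0.158 to 4.87 at E13.5, with a median of 3.26, so that the ranges overlapped. The log2 change was 1.53 ± 0.37 (SE, adjusted p = 0.000732, edgeR), where 75.3% of 10878 features tested were called. Tfcp2l1 reached the floor only through P0, so that a rise was the change the test could show. With all counts divided by 3 no member reached the floor. The change of Tfcp2l1 at day 21 against day 12 was smaller than at P0 against E13.5 by 1.42 ± 0.52 on the log2 scale (SE, adjusted p = 0.0283, edgeR), in a test added after the values were seen, where 45.6% of 11534 features were called. That call was lost without the day 12 library BJ1 replicate 1 or JB6 replicate 1, or the day 21 library BJ1 replicate 2 or JB6 replicate 2, at adjusted p-values from 0.057 to 0.0713.

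Esrrb and Tfcp2l1 were higher in culture than in cortex at both pairs of stages, and Klf4 at the later pair. At day 12 against E13.5 both tested members were called higher, where 37.5% of 10986 features were called higher and 79.6% in either direction. Both reached the floor only through day 12, so that a higher level there was the change the test could show. Esrrb, at 5.57 to 16.1 CPM at day 12 and 0.177 to 0.835 at E13.5, differed by 4.40 ± 0.40 on the log2 scale (SE, adjusted p = 3.12e-10, edgeR). Tfcp2l1, at 12.0 to 28.3 CPM at day 12 and 0.158 to 4.87 at E13.5, differed by 2.83 ± 0.39 (SE, adjusted p = 4.52e-07, edgeR). Neither pair of ranges overlapped, and how many of all features did not overlap was not counted. The microglia and blood genes, which summed to 15.0 to 28.8 CPM at day 12 and 754 to 6230 at E13.5, also differed, and their part in these values was not tested.

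At day 21 against P0, 3 members were tested and were called higher, where 40.7% of 11596 features were called higher and 80.8% in either direction. Of these, Esrrb and Klf4 reached the floor only through day 21, where they are high, so that a higher level there was the change the test could show. Tfcp2l1 reached it at both stages. Klf4 had 5.91 to 14.9 CPM at day 21 and 0 to 1.02 at P0, a log2 difference of 4.63 ± 0.79 (SE, adjusted p = 1.12e-05, edgeR). Esrrb had 6.89 to 13.8 at day 21 and 0.281 to 1.58 at P0, a log2 difference of 3.78 ± 0.34 (SE, adjusted p = 2.23e-10, edgeR). Tfcp2l1 had 14.6 to 34.2 at day 21 and 3.34 to 11.8 at P0, a log2 difference of 1.40 ± 0.33 (SE, adjusted p = 0.00044, edgeR). Each of the 3 was higher in every day 21 library than in any P0 library. How many of all features did not overlap there was not counted. The epithelial sum was also higher in culture at both pairs of stages (3.98 to 21.5 CPM at E13.5), as was the meningeal or fibroblast sum (8.55 to 757 CPM at E13.5 and 79.0 to 194 at P0), and their part in these differences was not tested.

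The pathway lists were thinner in these later comparisons. At day 21 against day 12, 51.2% of all features were called in either direction. There 1 of 10 tested genes of the other naive list rose and 4 fell. Of the 9 that reached the floor at both stages, 1 rose and 3 fell. Of 10 formative or primed genes 2 rose and 4 fell, and of the 7 at the floor in both stages, 2 rose and 1 fell. Of 14 genes of LIF, BMP and Wnt signalling, all at the floor in both stages, 5 rose and 3 fell. At P0 against E13.5, 75.3% of all features were called in either direction. There 1 of 4 other naive genes rose and 3 fell, and of the 3 at the floor in both stages, 1 rose and 2 fell. Of 7 formative or primed genes 2 rose and 4 fell, and of the 4 at the floor in both stages, 0 rose and 3 fell. Of 13 signalling genes, all at the floor in both stages, 3 rose and 7 fell. Of the other naive genes, 6 of 9 were higher and 2 lower at day 12 than at E13.5 (edgeR). Over all features, 37.5% were called higher there. Of the 9, 5 reached the floor only through day 12, so that a higher level was the change the test could show. Of the 4 that reached it at both stages, 1 was higher and 2 lower. At day 21 against P0, 5 of 6 were higher and 0 lower (edgeR), where 40.7% of all features were called higher. Of the 6, 2 reached the floor only through day 21, and of the other 4, 3 were higher.

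The spread among the 4 ESC libraries differed widely between members. Dppa4 varied least, with a coefficient of variation of 6.47%, and 96.5% of 9319 features tested in ESCs varied more. Nanog (22.7%), Dppa2 (23.9%), Tfcp2l1 (26.9%) and Esrrb (27.7%) lay near the median of all features, 22.3%. Tdgf1 (48.5%) and Klf4 (56.7%) varied most, with a highest library 3.59 and 3.5 times the lowest. For Tdgf1 this rests on 40 to 161 read bases per library and for Klf4 on 195 to 724.

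The ESC library JB6 replicate 2 stood apart. It was the lowest of the 4 for 5 of the 7 members: Tdgf1 stood at 0.383, Klf4 at 0.421, Esrrb at 0.525, Tfcp2l1 at 0.573 and Nanog at 0.679 times the mean of the other 3 libraries, where the median of all features was 1.03. Dppa2 stood at 0.843 and Dppa4 at 1.03. For how many of all features this library was the lowest was not counted. In the same library the epithelial genes summed to 1525 CPM, against 418 to 457 in the other 3, the meningeal or fibroblast genes to 149 against 2.23 to 11.1, the primitive endoderm genes to 273 against 153 to 164, the formative or primed genes to 3187 against 1776 to 2656, and the other naive genes to 6189 against 7706 to 8346. The part of these markers in the members' lower levels was not tested. Without this library the coefficient of variation was 0.252 times its value with it for Esrrb, 0.502 for Tfcp2l1, 0.682 for Tdgf1, 0.718 for Nanog and 0.841 for Klf4, but 1.11 for Dppa2 and 1.20 for Dppa4, with 0.928 for the median of all features.

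**Figure D3:**
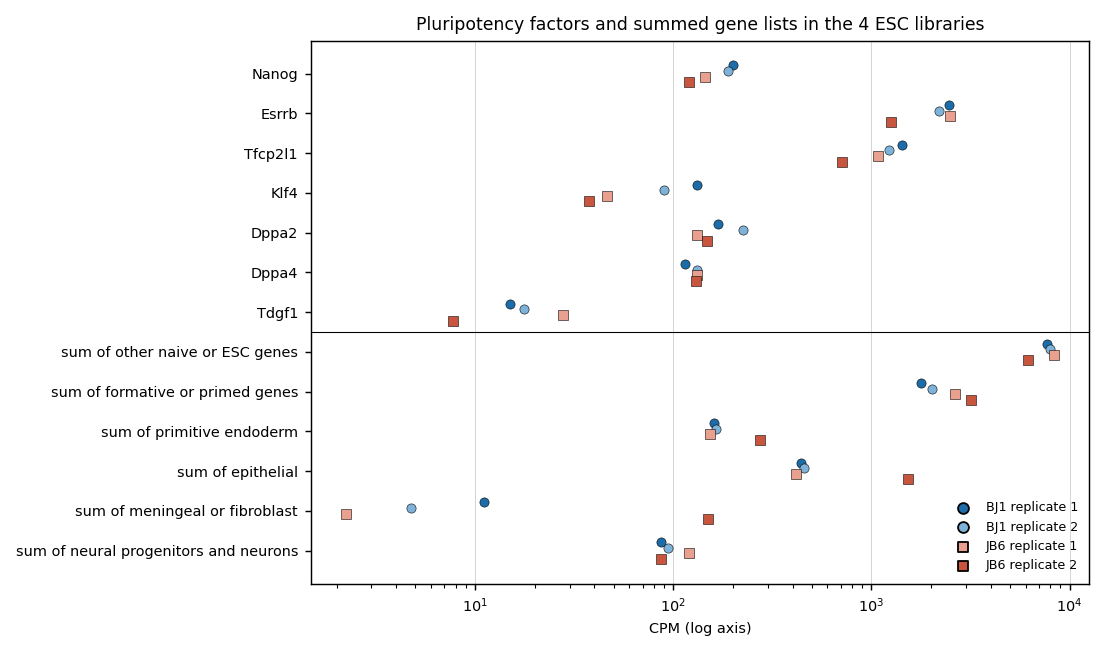
Level in CPM (x axis, logarithmic) of 7 pluripotency factors and of 6 summed gene lists (rows) in the 4 ESC libraries, 2 of line BJ1 (circles) and 2 of line JB6 (squares). JB6 replicate 2 is the lowest library for 5 of the 7 factors, a count not made over all features. It is the highest for the sums of epithelial (1525) and meningeal or fibroblast genes (149).

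For 4 of the 7 members the lines did not overlap and BJ1 was higher; of all features 27.7% did not overlap, 12.4% with BJ1 higher and 15.3% with BJ1 lower. Klf4 had 132 and 89.9 CPM in BJ1, against 46.4 and 37.6 in JB6, Nanog 200 and 188 against 145 and 121, Tfcp2l1 1419 and 1234 against 1083 and 714, and Dppa2 169 and 225 against 132 and 148. None of the 7 passed the test in a fit of 10 stage-by-line groups (edgeR), where 2.07% of 9319 features were called. In simulated data this fit recovered 24.5% of line differences of 1 on the log2 scale and 97.9% of those of 2. Differences of 1 or less could thus often be missed. Klf4 alone had an unadjusted p below 0.05 (log2 difference 1.37 ± 0.63 SE, unadjusted p = 0.0431, adjusted p = 0.316, edgeR), as did 1368 of the 9319 features. DESeq2 called none of the 7 either. Without JB6 replicate 2 the same test called 2322 of 9214 features, against 193 with it, and still no member. JB6 ESCs are then 1 library, which is assumed to vary like the other groups. For Tdgf1, at 0 in every day 12 library, a difference between the lines in the fall by day 12 could not be estimated. Such a difference passed for none of the other 6 members (edgeR, adjusted p 0.355 for Klf4 and 0.59 or more for the others), where 2.56% of 10565 features were called. None of the 6 had an unadjusted p below 0.05 (edgeR), against 2019 of the 10565 features.

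The alleles of Klf4 and Tdgf1 were read very unequally in ESCs. B6 and JF1 alleles were compared over the 4 ESC libraries with library and parent of origin as terms, on 8991 autosomal features, of which 44.6% were called. Of the 7 members 5 were called, 3 higher from B6, against 26.1% of all features, and 2 higher from JF1, against 18.5%. Intervals given below are 95% Wilson intervals and cover only the counting error of independent read bases. They can be too narrow, since 1 read can cover several strain differences.

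Klf4 was read from B6 in 89.8% and 88.6% of read bases in BJ1, where B6 is the mother, and in 91.5% and 93.3% in JB6, where B6 is the father. The B6 allele led in each library in both crosses, over 7 strain differences, and the log2 ratio of B6 to JF1 was 3.31 ± 0.12 (SE, adjusted p = 1.63e-17, edgeR). Only 83 of the 8991 features, 0.923%, had a larger lead of B6. Tdgf1 went the other way, with 12.0% and 13.9% from B6 in BJ1 and 8.07% and 17.5% in JB6, and a log2 ratio of -2.92 ± 0.22 (SE, adjusted p = 7.05e-11, edgeR). This rests on 1 strain difference and 399 read bases. The authors' description says that positions were removed where the B6 base made up less than 10% in the 12 pooled culture libraries. It also sets a JF1 share above 40% and more than 50 reads in that pool as conditions. Tdgf1's 11.5%, pooled over the ESC libraries (46 of 399, interval 8.76% to 15.0%), is just above the 10% limit. Processed pseudogenes of Tdgf1 and Nanog could share reads with them, so that both genes' values are uncertain to that extent.

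The other 5 members were close to parity. Nanog had 58.5% and 57.6% from B6 in BJ1 and 53.5% and 55.9% in JB6 (log2 ratio 0.37 ± 0.06, adjusted p = 4.36e-05, edgeR), and positions counted jointly for Nanog and the pseudogene Nanogpd gave 56.2% to 59.2%. Tfcp2l1 had 56.3% and 56.2% from B6 in BJ1 and 52.0% and 48.4% in JB6 (log2 ratio 0.19 ± 0.04, adjusted p = 0.000161, edgeR). Esrrb had 46.9% and 45.4% in BJ1 and 48.3% and 47.1% in JB6, with JF1 ahead in all 4 (log2 ratio -0.18 ± 0.03, adjusted p = 3.11e-05, edgeR). Dppa2, at 45.9% to 50.8%, and Dppa4, at 46.9% to 50.9%, did not pass (adjusted p = 0.101 and 0.33, edgeR). The calls of Esrrb and Tfcp2l1 were lost when limma was run on the log2 ratios (adjusted p = 0.166 for Esrrb and 0.170 for Tfcp2l1).

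Of 22 other naive genes tested for their alleles in ESCs, 11 were higher from B6 and 6 from JF1 (edgeR). The same counts were 5 and 5 of 10 formative or primed genes, 5 and 4 of 14 signalling genes and 1 and 1 of 4 genes of 2-cell-like and germline cells. Over all features, 26.1% were called higher from B6 and 18.5% from JF1. Between the lines in ESCs, 0 of 25 tested other naive genes, 0 of 10, 0 of 14 and 0 of 4 genes of the other lists were called. Over all features, 2.07% were called there.

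**Figure D4:**
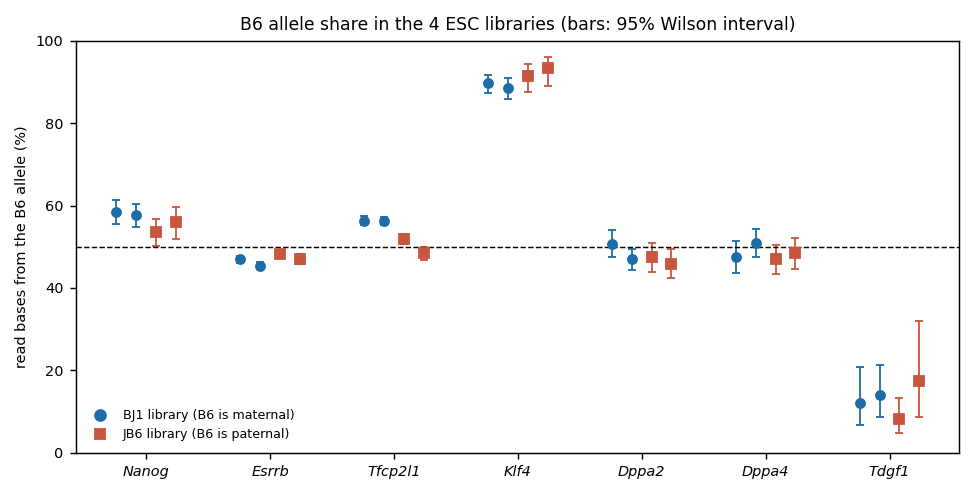
Share of read bases from the B6 allele (y axis, percent) for 7 pluripotency factors in each of the 4 ESC libraries (circles BJ1, squares JB6), with 95% Wilson intervals as bars and a dashed line at parity. Klf4 lies between 88.6% and 93.3% and Tdgf1 between 8.07% and 17.5% in both crosses, while the other 5 lie between 45.4% and 58.5%.

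By parent of origin, Tfcp2l1 alone was called, at 1.4% of 8991 features called. Its maternal allele held 56.3% and 56.2% of read bases in BJ1 and 48.0% and 51.6% in JB6, a log2 ratio of maternal to paternal of 0.17 ± 0.04 (SE, adjusted p = 0.00835, edgeR). The paternal allele was thus the higher one in 1 of the 4 libraries, and the call was lost with limma (adjusted p = 0.787), with DESeq2 (0.567) and without either BJ1 library (0.248 and 0.373).

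The strain balance of Tfcp2l1 was not the same at every stage. Its share from B6 was 72.9%, 77.8%, 73.2% and 62.1% at day 12 (90 to 183 read bases per library), against 48.4% to 56.3% in ESCs, with no overlap and in both crosses. In a fit of both alleles at the 5 stages, added after the values were seen, the log2 ratio of B6 to JF1 was higher at day 12 than in ESCs by 1.18 ± 0.15 (SE, adjusted p = 3.1e-08, edgeR; limma adjusted p = 0.0121), where 21.6% of 8513 features changed. At day 21 the shares were 72.5%, 67.0%, 64.9% and 58.2%, and the ratio was higher than in ESCs by 0.79 ± 0.14 (SE, adjusted p = 1.93e-05, edgeR; limma adjusted p = 0.0927), where 22.5% of 8525 features changed. In cortex the pooled share was 41.1% at E13.5 (112 read bases, interval 32.4% to 50.3%) and 46.5% at P0 (361 read bases, interval 41.5% to 51.7%), and the difference of P0 from ESCs did not pass (-0.38 ± 0.16, adjusted p = 0.0697, edgeR). At E13.5 the crosses lay on opposite sides of parity. BJ1 had 25 of 44 read bases from B6 (56.8%, interval 42.2% to 70.3%) and JB6 21 of 68 (30.9%, interval 21.2% to 42.6%). At P0 the pooled shares were 47.6% in BJ1 and 45.8% in JB6.

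Klf4 kept its lead of B6 wherever it was read in numbers. All 52 read bases at day 12 and 263 of 270 at day 21 came from B6 (97.4%, interval 94.7% to 98.7%). So did 27 of 33 at E13.5 and 16 of 18 at P0, where the B6 parent was of another stock than in culture. Of the 33 at E13.5, 20 were from the library JB6 replicate 2, with 14 from B6 (70.0%, interval 48.1% to 85.5%). At P0 BJ1 held 1 of 3 from B6 and JB6 15 of 15, so that the lead there was read in JB6 only. The log2 ratio at day 21 was higher than in ESCs by 1.94 ± 0.53 (SE, adjusted p = 0.0062, edgeR), a call that was lost with limma (adjusted p = 0.291) and without the day 21 library BJ1 replicate 2 (adjusted p = 0.0944), and it was 3.94 without JB6 replicate 1. Esrrb, with 32.7% and 59.2% from B6 in BJ1 and 59.5% and 65.3% in JB6 at day 21, was higher in B6 share there than in ESCs by 0.55 ± 0.19 on the log2 scale (SE, adjusted p = 0.0323, edgeR), a value that was 0.02 without BJ1 replicate 2. That call was also lost with limma (adjusted p = 0.725), without either day 21 library of JB6, and without the ESC library BJ1 replicate 2.

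**Figure D5:**
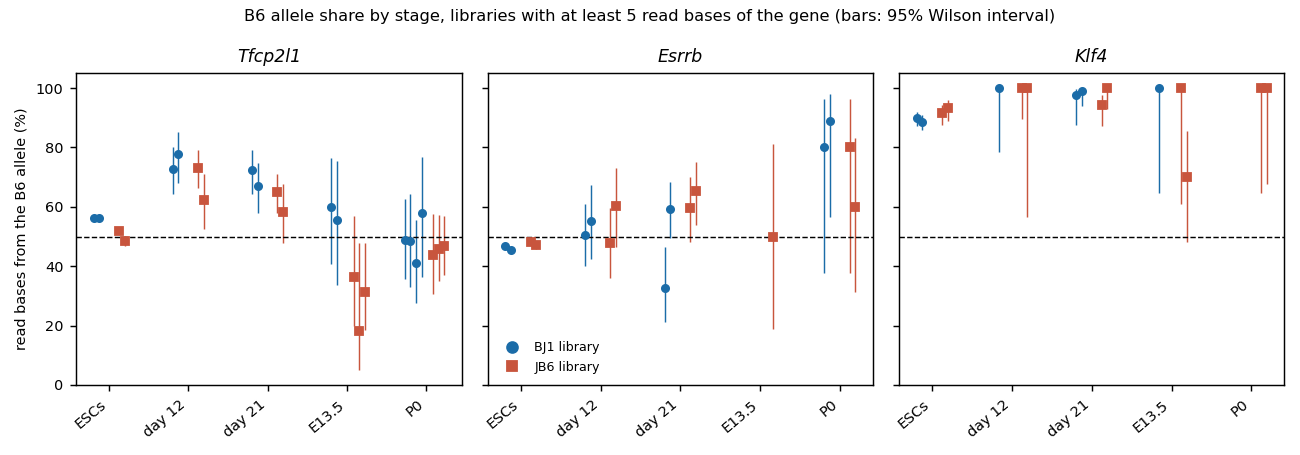
Share of read bases from the B6 allele (y axis, percent) for Tfcp2l1, Esrrb and Klf4 at 5 stages, in libraries with at least 5 read bases of the gene (circles BJ1, squares JB6), with 95% Wilson intervals as bars and a dashed line at parity. Tfcp2l1 lies between 62.1% and 77.8% at day 12, above its 48.4% to 56.3% in ESCs, and Klf4 stays on the side of B6 in each library shown.

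The features most like the set over the 25 libraries were found by Pearson's r between each feature's log2(CPM + 1) and the members' mean standardised profile, over 11502 features that averaged 20 read bases or more. The 10 highest were Cpsf4l (0.993), Fbxo15 (0.990), Zscan10 (0.990), BC033916 (0.989), Lefty1 (0.988), D7Ertd143e (0.988), Slc28a1 (0.987), Pla2g1b (0.987), Mageb16 (0.987) and 2210409E12Rik (0.986). Each has an ESC mean of 19.9 to 380 CPM and a highest value of 0.370 to 3.33 in any other library. The r is a description of shared stage differences, since the libraries of a stage share their conditions.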

How the data were processed

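Per the labels, polyadenylated RNA extracted with Trizol was made into stranded libraries. Tools named in the submitters' processing notes are edgeR, HTSeq, Novoalign and CASAVA 1.8.2, with the mm9 build. The deposited values are raw counts of sense read bases per gene, library and parental allele; per the authors' description, bases at strain differences were taken with SAMtools mpileup 0.1.18 and summed over genes, and a difference inside 2 genes is counted under a joined name. Of 12508968 strain differences, 6252 (37985 in another passage) were removed. Intervals and floors cover only the counting error of independent read bases. They can be too narrow, since 1 read can add several read bases.

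Counts were summed over both alleles and tested with edgeR 4.0.16 (R 4.3.3, TMM scaling, robust quasi-likelihood fit); DESeq2 1.42.0 and limma 3.58.1 (pseudocount of 1 read base on log2 ratios) served as alternatives, with Python 3.11.15 for summaries. Allele tests took 2 columns per library. A gene without a row in a table was taken as 0 there; the P0 table alone also lists 127 features at 0 throughout. Mitochondrial genes held 10.6% to 22.0% of read bases. The labels gave each library its stage and cross. The fits were tested on simulated data. The members, gene lists and comparisons were chosen with earlier results of these data known. Members are named in every comparison, and from each pathway list up to 4 called genes with the largest change at day 12 against ESCs; Fgfbp1, Sox2 and Pou5f1 were named after their values were seen. Alternatives covered the scaling, the floor, the genes required in both tables, the samples in the fit, counts divided by 3, a replicate block and leaving out each library.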

Additional observations from a re-analysis of the deposited data

Results flagged for a closer look

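Some libraries lay far from the others of their group by Dixon's test at the 95% level, which chance alone meets in about 1 of 20 groups; 45 groups were tested. Dppa4 was low in the ESC library BJ1 replicate 1, at 115 CPM against 130 to 132 in the other 3. Klf4 was high in the E13.5 library JB6 replicate 2, at 3.53 CPM against 0 to 1.11 in the other 5. The ESC library JB6 replicate 2 was high in 4 summed lists: primitive endoderm (273 CPM), epithelial (1525), meningeal or fibroblast (149) and microglia and blood (1.35, against 0 to 0.153 in the other 3). The part of that library's markers in the members' levels was not tested beyond the values without it given with the ESC results.

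Other results were picked out because an effect differed between groups by a test of the difference itself (edgeR). The log2 ratio of B6 to JF1 for Tfcp2l1 was higher at day 12 than in ESCs by 1.18 and at day 21 by 0.79. At day 21 the same ratio was higher than in ESCs by 1.94 for Klf4 and by 0.55 for Esrrb. The log2 change of Tfcp2l1 at day 21 against day 12 minus that at P0 against E13.5 was -1.42.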

How the results depend on the processing

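The fall of the tested members at day 12 kept its direction and its call in each alternative run, with these exceptions: DESeq2 called 6 of 7, leaving out Tdgf1, and with counts divided by 3 or genes listed at both stages 6 of 6 remained testable. Counts of called members moved under other settings. With counts divided by 3 they were 0 of 2 at day 21 against day 12, 0 of 0 at P0 against E13.5, 1 of 1 at day 12 against E13.5 and 1 of 1 at day 21 against P0, since fewer genes reached the floor. With no floor they were 2 of 6 at day 21 against day 12 and 5 of 6 at day 12 against E13.5. DESeq2 gave 0 of 3 at day 21 against day 12 and 0 of 7 for maternal against paternal alleles. Limma on log2 ratios called 3 members for B6 against JF1, 0 for maternal against paternal and 0 of 3 for the change of B6 bias at day 21.

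Leaving out 1 library at a time gave 7 calls throughout for day 12 against ESCs, 2 to 3 for day 21 against P0 (2 of 2 tested without the day 21 library BJ1 replicate 2), 0 to 1 for maternal against paternal alleles, 0 to 1 for the change of B6 bias at P0, 1 to 3 for that at day 21, and 0 to 1 for the difference between culture and cortex maturation. Signs turned only in values that did not pass, and the cause was not tested. Between lines in ESCs, the log2 difference ran from -0.21 to 0.022 for Dppa4 (above 0 without BJ1 replicate 1), from -0.20 to 0.95 for Esrrb (below 0 without JB6 replicate 2) and from -0.85 to 1.14 for Tdgf1 (above 0 without JB6 replicate 1). For maternal against paternal alleles it ran from -0.0057 to 0.092 for Dppa4 and from -0.25 to 0.39 for Tdgf1. At day 21 against day 12 it ran from -0.075 to 0.40 for Esrrb and from -0.16 to 0.27 for Tfcp2l1, and Tfcp2l1 was at -0.017 with mitochondrial genes out of the library size. The day 12 change of BJ1 minus that of JB6 ran from -0.54 to 0.29 for Dppa4, from -0.14 to 1.06 for Esrrb, from -4.31 to 1.79 for Nanog (below 0 without the day 12 library BJ1 replicate 1) and from -1.01 to 0.19 for Tfcp2l1, and Dppa2 was at -0.47 with counts divided by 3.

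Over all features, BJ1 against JB6 in ESCs gave 193 calls, but 343 with DESeq2, 120 with counts divided by 3, 0 with the ESC libraries alone, and 60 to 2322 when 1 library was left out. B6 against JF1 gave 4010, with 2633 for limma and 2318 for DESeq2; maternal against paternal 126, with 41 and 75, and 80 to 199 when 1 library was left out. The change of B6 bias gave 1835 at day 12 and 1914 at day 21, with 878 and 913 for counts divided by 3. The day 12 change of BJ1 minus that of JB6 gave 270, with 601 for DESeq2, 142 with no floor, 170 for counts divided by 3 and 90 to 2220 when 1 library was left out. Size factors of DESeq2's kind in edgeR put the median log2 change of all features at P0 against E13.5 at 0.10, against 0.00 with TMM, and Tfcp2l1 at 1.63 there.

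Replicate numbers were shared between stages, but libraries of the same number did not deviate together (correlations from -0.373 to 0.142), so the numbers were not taken as pairs. With a replicate block the counts of called members were 7, 1, 1, 2 and 3 in the 5 stage comparisons, as without it, and the crossed numbers also gave 7 at day 12 against ESCs and 1 at day 21 against day 12. Nanog, Dppa2, Dppa4 and Tdgf1 held too few read bases to reach the floor in the 4 stage comparisons without ESCs. Leaving out 1 of the 2 ESC or culture libraries of a line leaves 1 library, assumed to vary like the other groups.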

Other observations

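Dppa4 was read more from JF1 after ESCs, on few read bases. It had 9 of 30 read bases from B6 at day 12 (30.0%, 95% Wilson interval 16.7% to 47.9%) and 1 of 12 at day 21 (8.33%, interval 1.49% to 35.4%), against 1429 of 2943 in ESCs (48.6%, interval 46.8% to 50.4%). The day 12 libraries ran from 16.7% to 42.9%, and these differences were not tested, since the gene did not reach the floor. Sall4, a zinc finger factor of the other naive genes, was still at 94.8 CPM at day 12, against 807 in ESCs, and at 14.7 at E13.5. It fell by 2.89 on the log2 scale at day 21 against day 12 and fell by 7.30 at P0 against E13.5, where it held 0.0631 CPM (edgeR, adjusted p = 4.42e-10 and 9.46e-15). In cortex Sall4 reached the floor only through E13.5, so that a fall was the change the test could show. Spp1, which encodes osteopontin and is on the same list, rose in both comparisons, with 56.1 to 373 CPM at day 21 against 18.0 to 53.1 at day 12, by 1.99 and 2.28 on the log2 scale (edgeR, adjusted p = 0.00162 and 1.87e-05). Sall4 and Spp1 were chosen after their values were seen.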
